A study of Homo sapiens with 6 samples.

Results

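Small nucleolar RNA (snoRNA) genes were followed across 6 Affymetrix Human Gene ST arrays of A673 and SK-N-MC, which are established cell lines of Ewing tumor, a bone and soft tissue cancer. The members are genes whose symbol begins SNORD, SNORA or SCARNA and that have a probe set assigned to that gene alone. They number 192 of 18417 genes measured, with 115 SNORD genes, 61 SNORA genes and 16 SCARNA genes. Each line contributed 3 arrays: 1 from cells given a non-silencing control short interfering RNA (siRNA), 1 from cells given siRNA 2 against STEAP1 and 1 from cells given siRNA 3 against STEAP1. STEAP1 encodes a membrane protein of the metalloreductase family. The siRNA was used at 5 nM for 48 h in both lines. The control siRNA is not named, and the A673 control carries the number 2 in its label while the SK-N-MC control carries none. No label says that the arrays of a line stem from separate cultures, and no siRNA was repeated within a line. The p-values below therefore rest on spread between arrays given different siRNAs. That spread mixes technical spread with differences between siRNAs and between the responses of the lines. It does not measure spread between repeated cultures. The set was chosen by the response of one member, SNORD13P2, whose log2 intensity was higher in every siRNA array than in the control, so changes with silencing are given below as a description and were not tested.

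SnoRNAs are short noncoding RNAs of the nucleolus that guide chemical modification of ribosomal RNA by base pairing. Box C/D snoRNAs (SNORD genes) guide ribose methylation through the methyltransferase fibrillarin, and box H/ACA snoRNAs (SNORA genes) guide pseudouridylation through the enzyme dyskerin. The related SCARNA genes encode guides that reside in Cajal bodies and act on spliceosomal RNAs. Most human snoRNAs lie in introns of host genes, often genes for ribosomal proteins or translation factors or noncoding host genes, and are released when the intron is processed. Values in a bulk RNA sample cannot tell a smaller share of cells that make an RNA from less RNA per cell.

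Levels below are log2 intensities computed from the deposited table. The lines expressed Ewing tumor markers, with mean log2 levels of 9.81 for CD99, 7.62 for PRKCB, 6.86 for LIPI, 5.78 for NKX2-2, 5.46 for PAX7 and 3.91 for FLI1, while 9 markers of leukocytes, epithelium and endothelium lay between 1.12 and 2.01. Of the 4 fibroblast markers, COL1A1 lay at 4.67, COL3A1 at 3.47, DCN at 2.61 and PDGFRA at 1.31. The targeted transcript checked the labels: in SK-N-MC, STEAP1 had 7.15 in the control, 4.17 with siRNA 2 and 4.73 with siRNA 3, and in A673 it had 6.23, 4.53 and 4.59.

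The snoRNA genes spanned much of the range of mean log2 levels, which ran from 0.76 to 11.97 over all genes. Their mean log2 over the 6 arrays ran from 0.76 to 9.88 with a median of 3.40, beside 3.26 for all genes. A mean log2 of at least 4, used here to mark a bright gene, was reached by 83 members (43.2%, beside 40.3% of all genes), and 63 members lay under 2. No detection calls were available for use, so low values have no stated floor and differences among them are uncertain. The highest level belonged to SNORD33, a box C/D snoRNA within the ribosomal protein gene RPL13A, at 9.42, 9.99 and 10.17 in the SK-N-MC control, siRNA 2 and siRNA 3 arrays and at 9.87, 9.62 and 10.23 in the same order in A673. SNORD28, within the noncoding host gene SNHG1, lay between 8.53 and 9.11, and SNORD13, which directs acetylation of the small-subunit ribosomal RNA, between 8.07 and 9.20. Levels of different probe sets depend on their probes, so this order is one of array signal only. The 2 large box C/D families of the imprinted Prader-Willi region on chromosome 15 stood apart from each other. All 20 measured SNORD115 genes had means under 2, the highest at 1.19, whereas 5 of the 20 measured SNORD116 genes were bright, up to 7.58.

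The first comparison asked how the snoRNA genes differed between the lines, a contrast that did not serve to propose them. In limma, 14 members were called higher in A673 and 41 lower at a Benjamini-Hochberg adjusted p under 0.05 over all 18417 genes. This was 7.29% and 21.4% of the members, beside 13.5% and 11.4% of all genes. Counts in both directions together came to 28.6% of members and 24.8% of all genes. The median log2 difference, A673 minus SK-N-MC, was -0.10 over the members and -0.017 over all genes, and it was negative in 119 of 192 members. Among the 83 bright members, 8 were called higher and 29 lower, with a median of -0.37 and 65 of 83 negative. Among all 7413 bright genes, 1667 were called higher and 1213 lower, with a median of 0.019. Members whose arrays did not overlap between the lines numbered 26 on the A673 side (13.5%, beside 19.4% of all genes) and 52 on the SK-N-MC side (27.1%, beside 18.5%). The counts moved when single arrays were left out: without the A673 siRNA 2 array 34 members were called, 24 of them lower, and without either control array 9 were called higher. Over all bright genes the counts fell as well. They were 1311 higher and 971 lower without the A673 siRNA 2 array, and 1306 and 753 without either control array. For the bright members these counts were 6 and 17, and 3 and 19.

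**Figure D1:**
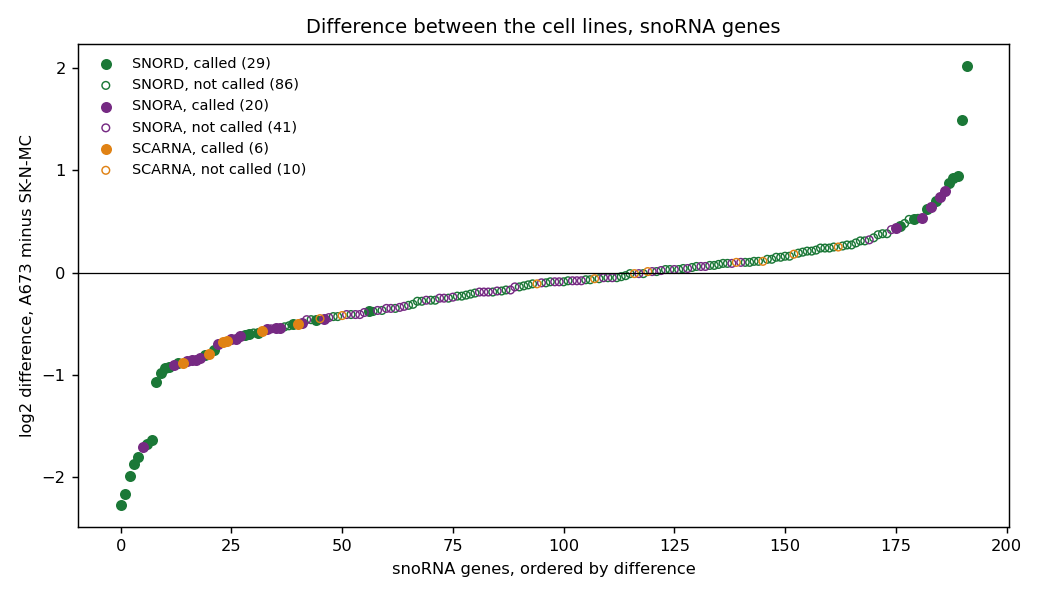
Log2 difference between the lines (A673 minus SK-N-MC, vertical axis) for each of the 192 snoRNA genes, sorted together by difference along the horizontal axis. Colors mark the SNORD, SNORA and SCARNA classes. Filled points are the members called by limma (29 SNORD, 20 SNORA and 6 SCARNA genes), and open points were not called. The lowest points reach -2.27 and the highest 2.02.

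The 3 classes were each called more often lower than higher in A673. Shares called higher and lower were 13.5% and 11.4% over all genes, and 22.5% and 16.4% over all bright genes. Bright genes made up 40.0% of the SNORD, 44.3% of the SNORA and 62.5% of the SCARNA genes, so the classes also differ in brightness. Of the SNORD genes 9 were higher and 20 lower (7.83% and 17.4%, median -0.049), and 10 of the 20 belong to the SNORD116 family described below. Outside SNORD115 and SNORD116, 14 of 152 members of all classes were called higher and 31 lower (9.21% and 20.4%). Of the SNORA genes 5 were higher and 15 lower (8.2% and 24.6%, median -0.24, 75.4% negative). Of the 16 SCARNA genes, 0 were higher and 6 were lower (37.5%, median -0.27). The SCARNA genes lower in A673 were SCARNA8 (-0.88), SCARNA17 (-0.80), SCARNA9L (-0.68), SCARNA7 (-0.67), SCARNA12 (-0.57) and SCARNA1 (-0.50). For SCARNA9 the 2 probe sets disagreed in sign, at 0.18 and -0.41.

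The SNORD116 family held the largest differences. Of its 20 measured genes, 10 were called lower in A673 and 0 higher, 18 had a negative difference and 13 had arrays that did not overlap between the lines. Over all genes these shares were 11.4% called lower, 53.3% negative and 18.5% without overlap on this side. SNORD116 RNAs are box C/D snoRNAs without an established ribosomal RNA target, and deletion of this cluster is linked to Prader-Willi syndrome. SNORD116-14 lay at 7.41, 7.42 and 7.45 in the SK-N-MC control, siRNA 2 and siRNA 3 arrays and at 4.96, 4.87 and 5.64 in the corresponding A673 arrays. All 3 SK-N-MC arrays lay above all 3 A673 arrays, and the difference was -2.27 (SE 0.19, adjusted p = 8.14e-05), or 4.82-fold. SNORD116-15, the brightest member of the family, lay at 8.54, 8.55 and 8.88 in SK-N-MC and at 6.46, 6.17 and 6.87 in A673, again without overlap (-2.16, SE 0.19). SNORD116-24 lay at 5.86, 6.28 and 6.11 against 4.15, 3.86 and 4.28 (-1.99, SE 0.15). SNORD116-21 lay at 6.32, 5.34 and 5.87 against 3.69, 3.69 and 4.54 (-1.87, SE 0.29). The arrays of both genes were also separate between the lines. SNORD116-20 differed by -1.68 (SE 0.23) and SNORD116-1, a dimmer copy at 1.01 to 1.41 in A673, by -1.64 (SE 0.20). Copies within the family are near-identical in sequence, so the share of the signal that belongs to each copy is uncertain and the 20 genes are not independent. The SNORD115 genes of the same region, all dim, had 0 calls and a median of 0.076.

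RefSeq places all 40 SNORD115 and SNORD116 members inside SNHG14, a long noncoding transcript that also runs through the antisense side of UBE3A. SNHG14 itself was not measured on a probe set of its own. UBE3A, a ubiquitin ligase gene at the end of the same region, was lower in A673 by a smaller amount (-0.44, SE 0.10, adjusted p = 0.0145). The sequences just upstream of the start of 3 host genes are given because their snoRNAs had the largest differences in either direction: SNHG14 for SNORD116, SNHG32 for SNORD52 and HSPA8 for SNORD14C and SNORD14E. They are the 250 bases before each RefSeq start in GRCh38.p14, read 5′ to 3′ on the strand of the gene, at chr15:24823358-24823607 (plus strand), chr6:31834666-31834915 (plus strand) and chr11:123062137-123062386 (minus strand). Capitals mark matches on either strand to 4 motifs: the NRF1 motif, the CCAAT box, the TATA motif TATAA and the GC box GGGCGG. No match overlaps another.
SNHG14: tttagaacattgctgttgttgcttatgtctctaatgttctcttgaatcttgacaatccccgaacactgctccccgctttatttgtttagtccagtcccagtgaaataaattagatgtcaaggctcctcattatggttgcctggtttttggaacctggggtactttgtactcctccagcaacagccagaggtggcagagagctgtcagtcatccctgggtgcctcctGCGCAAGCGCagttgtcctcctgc
SNHG32: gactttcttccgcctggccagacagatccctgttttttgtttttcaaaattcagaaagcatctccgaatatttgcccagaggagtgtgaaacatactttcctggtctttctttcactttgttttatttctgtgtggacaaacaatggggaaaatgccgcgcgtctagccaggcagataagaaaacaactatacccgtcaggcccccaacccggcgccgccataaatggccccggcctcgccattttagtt
HSPA8: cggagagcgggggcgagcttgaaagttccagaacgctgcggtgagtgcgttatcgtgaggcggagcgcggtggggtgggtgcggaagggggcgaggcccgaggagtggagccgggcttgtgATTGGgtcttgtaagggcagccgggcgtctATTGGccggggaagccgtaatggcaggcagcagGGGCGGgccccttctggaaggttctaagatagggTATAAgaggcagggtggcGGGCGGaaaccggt
The SNHG14 window held 1 NRF1 motif, which 5.07% of 35116 RefSeq promoter windows of the same length hold. The HSPA8 window held 2 CCAAT boxes (in 32.0% of windows), 1 TATA motif (18.9%) and 2 GC boxes (42.6%). The SNHG32 window held none of the 4. These matches are descriptions of the letters, and none was tested for activity.

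Outside the SNORD116 family, 2 members were among the 8 with the largest called differences on the SK-N-MC side. SNORD52, a box C/D snoRNA in the noncoding host gene SNHG32 on chromosome 6, lay at 6.01, 6.27 and 6.11 in SK-N-MC and at 4.21, 4.36 and 4.43 in A673. It had the smallest SE of these genes (-1.80, SE 0.11, 3.48-fold) and no overlap. SNORA21, an H/ACA snoRNA within the ribosomal protein gene RPL23, lay at 7.24, 7.47 and 7.75 against 6.01, 5.67 and 5.68 (-1.70, SE 0.16, adjusted p = 0.000155). Its host differed in the same direction: RPL23 lay at 5.85, 5.62 and 5.98 in SK-N-MC and at 4.32, 4.38 and 4.37 in A673 (-1.46, SE 0.12).

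On the A673 side the largest differences belonged to a pair of box C/D snoRNAs in HSPA8, the gene for the constitutive heat shock cognate chaperone. SNORD14E lay at 4.50, 4.59 and 4.02 in the A673 control, siRNA 2 and siRNA 3 arrays and at 2.37, 2.67 and 2.01 in SK-N-MC (2.02, SE 0.20, adjusted p = 0.000207). Its SK-N-MC values are dim, and with intensities under 16 set to 16 the difference was 0.37 and no longer called (adjusted p = 0.119). SNORD14C lay at 6.11, 6.41 and 6.24 against 4.53, 4.83 and 4.94 (1.49, SE 0.11, 2.81-fold). Neither overlapped between the lines. HSPA8 was higher in A673 by 0.43 (SE 0.10, adjusted p = 0.016), at 11.49, 11.52 and 11.52 against 11.15, 11.08 and 11.00. Whether the snoRNAs and their host differed by unequal amounts was not tested.

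The other 6 members with the largest differences on the A673 side were smaller in size. SNORD30, within SNHG1, lay at 7.14, 7.50 and 7.43 in A673 and at 6.12, 6.50 and 6.69 in SK-N-MC (0.92, SE 0.11). SNORD28 of the same host gene differed by -0.01 (SE 0.15). SNORD49A, within SNHG29, lay at 4.25, 4.59 and 4.03 against 3.30, 3.30 and 3.47 (0.94, SE 0.16), and SNHG29 differed by 0.22 (adjusted p = 0.22). With intensities under 16 set to 16, SNORD49A differed by 0.29 and was not called (adjusted p = 0.193). SNORD113-4, of the imprinted cluster on chromosome 14 within MEG8, was dim at 2.16, 2.02 and 2.28 against 1.16, 1.43 and 1.23 (0.88, SE 0.12). The remaining 5 members of that cluster measured here (1 SNORD113 and 4 SNORD114 genes) also had positive differences and were not called. SNORA24 (0.80, SE 0.17) within SNHG8, SNORA67 (0.74, SE 0.15) within the translation initiation factor gene EIF4A1 and SNORD12C (0.70, SE 0.15) within ZFAS1 completed the group. Without either control array SNORA24 had an adjusted p of 0.0515 and SNORD12C one of 0.0569.

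Beyond these 16 genes, the called members were spread over many hosts. SNORD8, within the chromatin remodeller gene CHD8, lay at 5.09, 5.12 and 5.75 in SK-N-MC and at 4.45, 4.39 and 4.18 in A673 (-0.98, SE 0.19), and CHD8 differed by -0.24 (adjusted p = 0.186). SNORD60, within SNHG19, lay at 6.28, 6.17 and 6.83 against 5.69, 5.16 and 5.68 (-0.92, SE 0.21). SNORD50A, within SNHG5, lay at 7.15, 6.64 and 7.78 against 6.35, 6.27 and 6.29 (-0.88, SE 0.25). The SK-N-MC siRNA 3 array was the highest of the 6 for all 3 of these genes, and the lines did not overlap. Among box H/ACA genes, SNORA22 (-0.85), SNORA5A (-0.65), SNORA68 (-0.55), SNORA27 (-0.54) and SNORA5C (-0.45) were lower in A673, and SNORA70D (0.64) was higher. SNORA5A and SNORA5C share the host TBRG4, which differed by -0.04 (adjusted p = 0.872). SCARNA17, the brightest SCARNA gene, lay at 7.91, 8.46 and 7.73 in SK-N-MC and at 7.10, 7.20 and 7.42 in A673, without overlap (-0.80, SE 0.18), and its other probe set differed by -0.60.

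**Figure D2:**
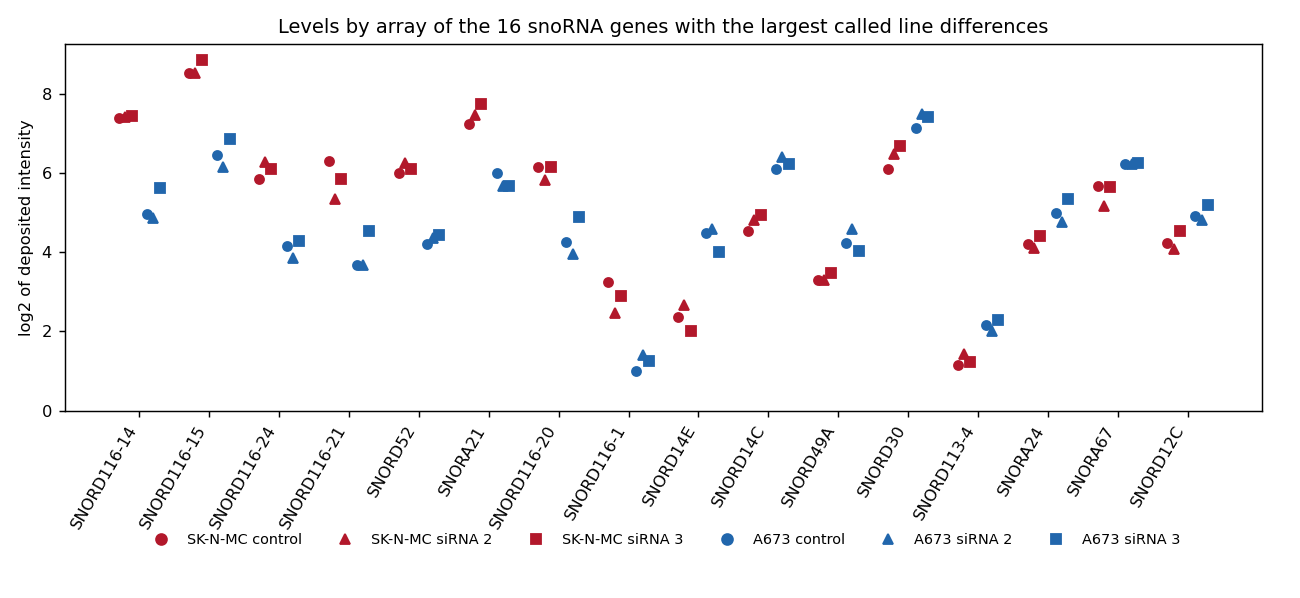
Log2 intensity (vertical axis) in each of the 6 arrays for the 16 snoRNA genes with the largest called differences between the lines, 8 in each direction. SNORD116-15 is the brightest, between 8.54 and 8.88 in SK-N-MC and between 6.17 and 6.87 in A673, and the 3 arrays of one line lie on one side of the 3 arrays of the other for each of the 16 genes.

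Host genes were set beside their snoRNAs next, since an intronic snoRNA and its host come from one transcript. A RefSeq gene spanned 190 of the 192 members, and for 99 members (77 distinct hosts) a spanning gene was measured on a probe set of its own. Genes named RPL or RPS, which are ribosomal protein genes except for the pseudogene RPL32P3, spanned 34 members, genes named SNHG spanned 59 and GAS5, a noncoding host gene, spanned 7. Across the 99 pairs the line difference of the snoRNA and that of the host correlated at Pearson r = 0.468 and Spearman rho = 0.363, and 66 pairs had the same sign. In the 46 pairs with a bright snoRNA these values were 0.51 and 0.403, with 35 of the same sign. Of the 77 hosts, 53 had a negative difference, 16 were called lower in A673 and 6 higher. This was 28.6% called, beside 24.8% of all genes and 38.9% of all bright genes. Hosts and members thus both leaned lower in A673, and the agreement in sign was not tested against that lean. The pairs share arrays, and several snoRNAs share a host, so they are not independent points. Of the 29 members of these pairs that were called, 27 had the sign of their host, 16 had a host called in the same direction and 0 had a host called in the opposite direction. In 12 of these 16 the snoRNA had the larger difference.

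SCARNA8 (-0.88) lies within HAUS6 (-1.14), SNORA14B (-0.83) within TOMM20 (-0.90) and SNORA3A (-0.85) within RPL27A (-0.73), and all 6 were called lower in A673. In CNOT1, a scaffold gene of the deadenylase complex, SNORA46 (0.53), SNORA50A (0.44) and the host (0.46) were all higher in A673. SNORA71A (-0.86), SNORA71C (-0.90) and SNORA71D (-0.62) were lower with their noncoding host SNHG17 (-0.43). The exceptions in sign were SCARNA7 (-0.67), within the importin gene KPNA4 (0.33), and SNORD12C (0.70), within ZFAS1 (-0.26), and neither host was called. Members of one host did not always share a call. The 7 members of GAS5 had differences from -0.38 to -0.04 with 1 call (SNORD74), and the 4 of RPL13A from 0.05 to 0.62 with 1 call (SNORD34).

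**Figure D3:**
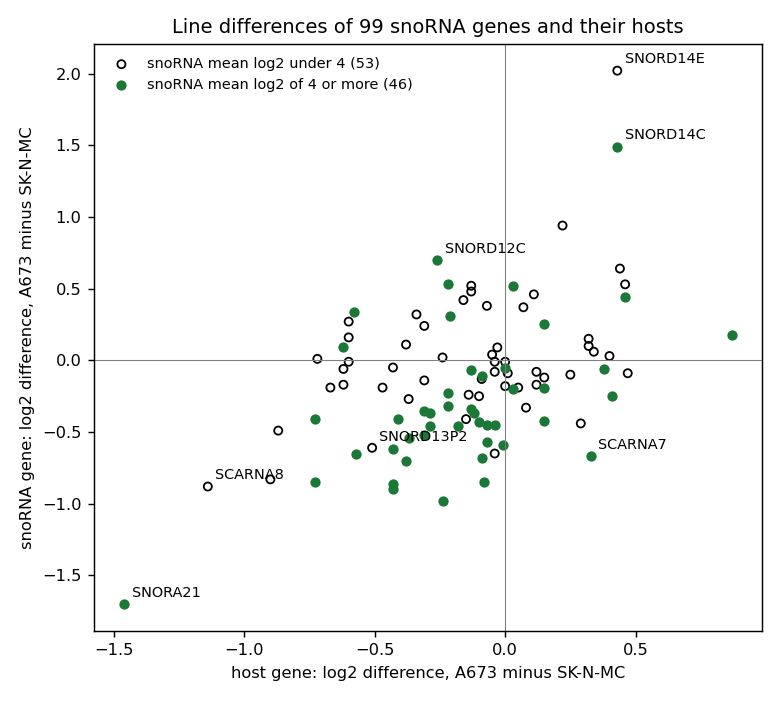
Log2 difference between the lines (A673 minus SK-N-MC) of each snoRNA gene (vertical axis) against that of its measured host gene (horizontal axis) for 99 pairs, of which 46 have a bright snoRNA (mean log2 of at least 4) and 53 a dimmer one. SNORA21 lies at the lower left with RPL23, and SNORD14C and SNORD14E lie well above the value of HSPA8.

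The second comparison set siRNA 2 against siRNA 3 within the lines. With every array kept, the size of the difference rests on the siRNA arrays alone. The control arrays are part of the fit, so they enter its SE and p-values. Once an siRNA array is left out, the control arrays also enter the size of the difference. limma called 0 members (lowest adjusted p 0.572) and 0 of all 18417 genes (0.0%), while 24 members (12.5%) and 1229 of all genes (6.67%) had an unadjusted p under 0.05. The median of siRNA 2 minus siRNA 3 was -0.082 over the members, with 139 of 192 negative, and -0.0061 over all genes, with 51.6% negative. Among the 83 bright members the median was -0.19, with 70 negative, beside -0.029 and 56.3% negative over all bright genes. Lower values with siRNA 2 in both lines were seen in 76 members (39.6%, beside 26.3% of all genes). The same held for 47 of the 83 bright members (56.6%, beside 31.0% of bright genes). In single lines, 115 members were lower with siRNA 2 in A673 and 124 in SK-N-MC, among them 61 and 64 bright members. Whether the overlap of the lines exceeded what these leans alone give was not tested. Taken line by line, the median of the bright members was -0.10 for A673 (0.018 over all bright genes) and -0.23 for SK-N-MC (-0.075 over all bright genes). Single arrays moved the size of that median, to -0.10 when siRNA 3 of SK-N-MC was left out and to -0.29 when siRNA 3 of A673 was left out. After a second quantile normalization it was -0.16, beside 0.01 over all bright genes. The members share arrays and several share a host, so these counts do not test the list as a whole.

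By name, the 3 lowest differences between the siRNAs were SNORD61 (-0.74, SE 0.25), SNORD116-21 (-0.69, SE 0.27) and SNORD45A (-0.63, SE 0.23), none of them called. SNORD61 lies within the RNA-binding protein gene RBMX on the X chromosome. SNORD45A, within RABGGTB, lay at 7.83 with siRNA 2 and 8.97 with siRNA 3 in SK-N-MC and at 8.05 and 8.17 in A673, so that most of its value came from SK-N-MC. The largest positive differences were SNORD14E (0.61, SE 0.14, at 0.56 in A673 and 0.66 in SK-N-MC), SNORD95 (0.37, SE 0.16), within RACK1, and SNORA28 (0.35, SE 0.16), within EIF5. The adjusted p of these 6 lay between 0.572 and 0.758. Single arrays moved 5 of them by more than 1.5-fold. Leaving out siRNA 3 of SK-N-MC gave -0.23 for SNORD61 and -0.21 for SNORD45A, and leaving out siRNA 3 of A673 gave -0.28 for SNORD116-21. SNORD95 stood at 0.16 with siRNA 2 of SK-N-MC left out, and SNORA28 at 0.14 with siRNA 2 of A673 left out.

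**Figure D4:**
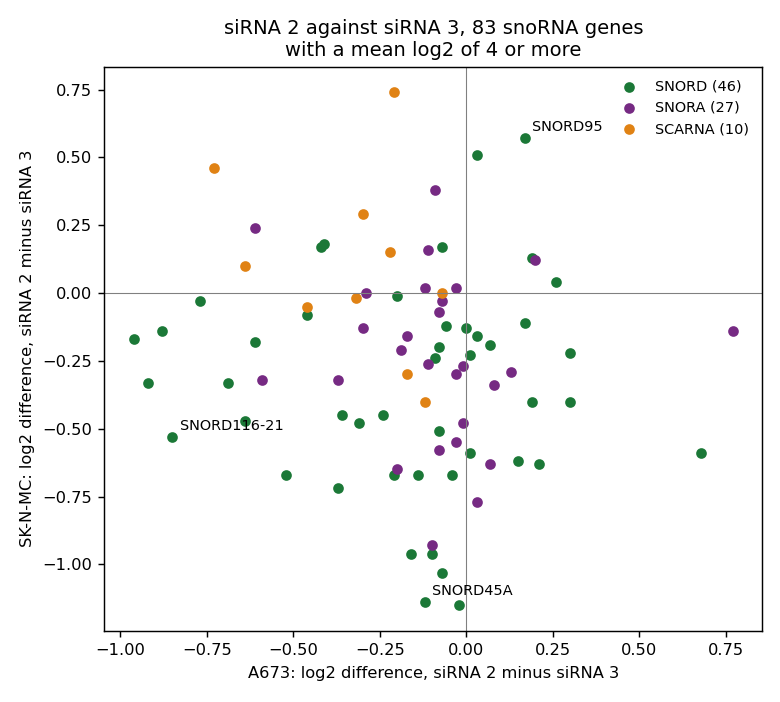
Log2 difference of siRNA 2 minus siRNA 3 in A673 (horizontal axis) against that in SK-N-MC (vertical axis) for the 83 bright snoRNA genes (46 SNORD, 27 SNORA and 10 SCARNA genes). At the lower left, 47 members are lower with siRNA 2 in both lines, and 5 are higher in both.

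With STEAP1 silencing itself, the contrast that proposed the members, 20 members were higher than the control of their line in all 4 siRNA arrays (10.4%, beside 10.6% of all genes) and 15 were lower in all 4 (7.81%, beside 11.2%). The mean over the 4 arrays had a median of 0.027 over the members and -0.0050 over all genes. For SK-N-MC the bright members had a median response of 0.0045 with siRNA 2 and 0.29 with siRNA 3. For A673 these medians were -0.083 and 0.076. Over all bright genes the medians were -0.096 and -0.020 for SK-N-MC and 0.035 and 0.018 for A673. At least 1.5-fold in all 4 arrays, SNORD13P2 was higher and 0 members were lower, beside 4 genes (0.0217%) and 2 genes (0.0109%) of all. SNORD13P2 is a pseudogene of SNORD13 within FOXK1 on chromosome 7. Its SK-N-MC arrays gave 2.74 for the control and 3.48 for either siRNA, and its A673 arrays gave 2.12, 2.85 and 2.92. The 4 responses were 0.74, 0.74, 0.73 and 0.80 (mean 0.75, SE 0.11), and within each line both siRNA arrays lay above the control. Each pair of responses shares 1 control array. Its host FOXK1 lay at 6.08, 5.90 and 5.63 in SK-N-MC and at 5.42, 5.54 and 5.11 in A673, with siRNA arrays on both sides of the A673 control.

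The parent gene and the other pseudogenes had other patterns. SNORD13 lay at 8.60, 9.06 and 9.20 in the SK-N-MC control, siRNA 2 and siRNA 3 arrays and at 8.68, 8.07 and 8.95 in A673. SNORD13P3 ran below it in the same order of arrays, at 8.10, 8.66 and 8.83 in SK-N-MC and at 8.21, 7.57 and 8.53 in A673. In both genes the A673 siRNA 2 array was the lowest of the 6. SNORD13P1 was dim and lay between 0.59 and 1.37. Copies of SNORD13 are alike in sequence, so their signals may be shared between probe sets. Between the lines SNORD13P2 had a difference of -0.61 and its arrays overlapped, since its SK-N-MC control lay below both A673 siRNA arrays. It is counted among the 41 members called lower, but the line fit removes the silencing term by which it was chosen, so its call is given as a description. FOXK1 was lower in A673 (-0.51, SE 0.15, adjusted p = 0.0354).

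**Figure D5:**
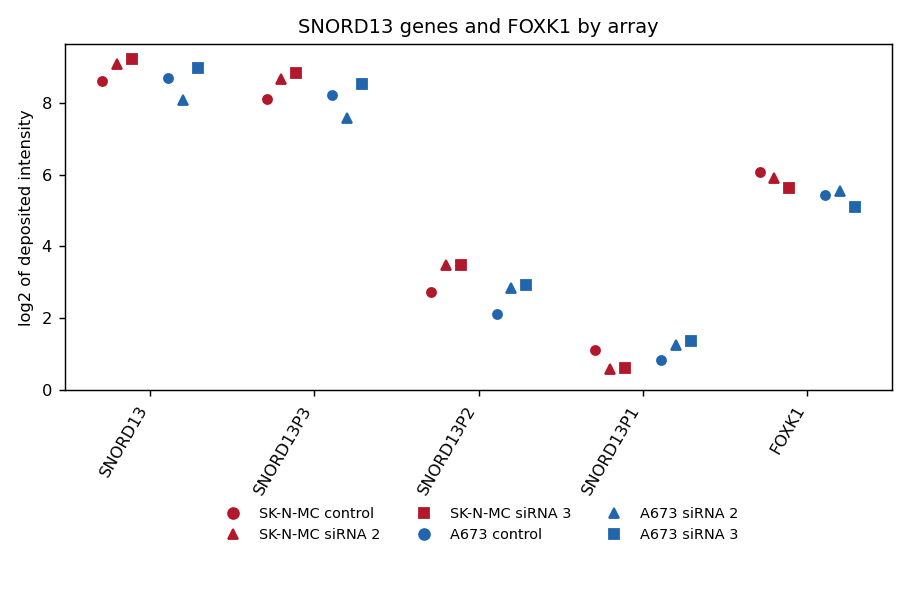
Log2 intensity (vertical axis) in each of the 6 arrays for SNORD13, SNORD13P3, SNORD13P2, SNORD13P1 and FOXK1, the host of SNORD13P2. SNORD13P2 goes from 2.74 to 3.48 in SK-N-MC and from 2.12 to 2.85 and 2.92 in A673, while SNORD13 and SNORD13P3 are lowest in the A673 siRNA 2 array.

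Other members of one sign in all 4 siRNA arrays had a smaller response in at least 1 array than SNORD13P2 had in any. SNORD96B stood at 0.54 and 0.41 in SK-N-MC (siRNA 2, siRNA 3) and at 0.80 and 0.38 in A673, and SNORD30 at 0.39, 0.57, 0.37 and 0.30 in the same order. SNORA29 (0.29, 0.26, 0.39 and 0.51) and SNORA20 (0.17, 0.75, 0.42 and 0.50) both lie within TCP1, a chaperonin subunit gene. On the lower side SNORA80E stood at -0.27, -0.29, -0.29 and -0.26, and SNORD116-16, a dim copy, at -0.30, -0.25, -0.20 and -0.23. SNORA38 stood at -0.16, -0.16, -0.54 and -0.24, SNORD115-4 at -0.16, -0.22, -0.20 and -0.19, and SNORD75 at -0.55, -0.15, -0.22 and -0.41. The difference of the responses between the lines was tested directly and limma called 0 members and 0 of all genes (0.0%), with 12 members and 711 genes at an unadjusted p under 0.05. With 1 control array per line and 2 residual degrees of freedom, this count does not show that the lines responded alike.

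Proteins that build, trim or use snoRNAs were taken from lists drawn up for this tissue and topic. Over all genes, 13.5% were called higher and 11.4% lower in A673, 24.8% in all. For all bright genes these shares were 22.5%, 16.4% and 38.9%. Shares called in the lists below were 50.0% for H/ACA, 18.2% for box C/D, 36.4% for Cajal body and 25.0% for 3′ processing. They were 32.1% for processome, 33.3% for RNA polymerase I and 40.0% for genes listed as noncoding hosts. Each share rests on few genes. Of the 6 H/ACA core and assembly genes, 3 were called lower in A673 and 0 higher (median -0.28, beside -0.017 over all genes). These were NHP2, a core H/ACA protein (-1.20, SE 0.17), SHQ1, an assembly factor that binds dyskerin (-1.06, SE 0.17), and NOP10, another core protein (-0.45, SE 0.13). Of 11 measured box C/D core and assembly genes, RUVBL2 was higher (0.72) and ZNHIT3 lower (-0.68). Of 11 measured Cajal body and cap hypermethylation genes, 2 were higher (GEMIN4 0.81, WRAP53 0.61) and 2 lower, among them GEMIN5 (-1.32, SE 0.13), which binds small nuclear RNAs in the SMN complex. Of the 20 genes of small RNA 3′ processing and decay, 3 were higher and 2 lower, led by the noncanonical poly(A) polymerase TENT4B (1.39) and the exosome adaptor RBM7 (1.38).

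The processome that uses SNORD3 to release the small-subunit ribosomal RNA had 4 genes higher and 5 lower of 28. The smallest p-values belonged to UTP6 (-1.10), HEATR1 (-0.94) and UTP4 (0.78), and the largest difference to BMS1 (1.15). Of 15 RNA polymerase I genes 1 was higher and 4 were lower, among them POLR1H (-0.85), POLR1F (-0.81) and POLR1C (-0.74). Of 30 genes listed as noncoding snoRNA hosts, 5 were measured on a probe set of their own. Among these, EPB41L4A-AS1 (-0.67) and SNHG17 (-0.43) were lower. The 5 include TAF1D, a protein-coding gene that is counted in the RNA polymerase I list as well. Between the siRNAs 0 genes of any of these lists were called. Their medians of siRNA 2 minus siRNA 3 were -0.22 for the Cajal body list (10 of 11 negative), -0.17 for the processome (23 of 28 negative), -0.17 for RNA polymerase I (12 of 15 negative) and -0.17 for the H/ACA list (4 of 6 negative). They were -0.041 for the box C/D list (8 of 11 negative) and -0.025 for 3′ processing (12 of 20 negative). For the measured genes listed as noncoding hosts, TAF1D included, the median was -0.022 (3 of 5 negative). The median over all genes was -0.0061. The acetyltransferase NAT10, which works with SNORD13, had a positive difference (0.75, SE 0.22), as had the polymerase I initiation factor RRN3 (0.86, SE 0.21), and neither was called.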

How the data were processed

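The authors deposited 1 intensity per probe set and array. The submitters' processing notes name RMA and Affymetrix Expression Console 1.1, and the values are on a linear scale, for which the sources used here give no step. Of 33297 probe sets, 19460 carry 1 gene symbol in the platform annotation, and symbols were updated by gene ID through RefSeq GRCh38.p14 (19429 matched). The probe set with the highest mean log2 stood for a gene, which left 18417 genes. A further 76 probe sets with several symbols, at least 1 of them a snoRNA gene, were not used.

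Two-sided tests with lmFit and eBayes (limma 3.58.1, R 4.3.3) ran on log2 values of all genes, with no filter on low values. The line difference came from line and silencing terms (3 residual degrees of freedom), the siRNA difference from a line term and a term per siRNA (2), and the difference of the responses from 4 group means (2). The fits were tested on simulated data. The host was the shortest measured gene of the RefSeq table that spans a snoRNA, and strand was not used because the tables used here give none for snoRNAs.

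Named were SNORD13 genes, the 8 largest called line differences in each direction, the 3 largest siRNA differences in each direction, the 5 members in each direction with the largest smallest change over the siRNA arrays, the 3 highest levels, hosts of these, and the list genes with the smallest p. Other hosts and their members, other called members, UBE3A and the RNU genes were named after their values were seen. SNORD3 and SNORD118 genes had no single-symbol probe set. Members and lists were chosen with earlier results of these data known. The number of arrays limits the precision.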

Additional observations from a re-analysis of the deposited data

How the results depend on the processing

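Between the lines 55 members were called, and 35 with intensities under 16 set to 16 (8 higher and 27 lower in A673, among 92 members with any spread left). A fit restricted to the 7413 bright genes (mean log2 4 or more) gave 44 calls among the 83 bright members, 8 higher and 36 lower. The fit to all genes had 8 higher and 29 lower among the same members. With single arrays left out the count ran from 34 to 59, with 9 to 17 higher and 24 to 46 lower. Of the 55, the number still called was 53 after a second quantile normalization, 47 after median centring and 32 to 46 with an array left out, and 0 changed sign. With a term per siRNA in place of the silencing term 62 members were called (18 higher, 44 lower), 54 of them among the 55. The siRNA numbers in the labels do not show shared cultures. The siRNA 2 minus siRNA 3 differences correlated between the lines at r = 0.0663 across 18417 genes.

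Calls between siRNAs and for the difference of the responses stayed at 0 under each alternative run. The difference of the responses could not be fitted without a control array. Of the named line values, SNORD14E (0.37, adjusted p = 0.119) and SNORD49A (0.29, adjusted p = 0.193) lost their calls with the floor of 16, which lies above all of their SK-N-MC values. SNORD116-1 and SNORD113-4 lay below the floor in every array, so no difference was left to test. The same held for the called copies SNORD116-6, SNORD116-11, SNORD116-22 and SNORD116-23. The mean response of SNORD13P2 ran from 0.74 to 0.77, which is a description only, since the gene was chosen by this response. SNORD13P2 lies below a log2 of 4, so the floor and the bright filter gave no value for it. Differences of the 63 members under a log2 of 2 are the least certain, since no detection calls were used.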

Other observations

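Among 197 other small RNA genes measured, 4 were called higher in A673 and 13 lower, with a median line difference of 0.0034. This was 8.63% called, beside 24.8% of all genes. Of the 17 with a mean log2 of at least 4, 0 were higher and 7 lower (41.2%), with a median of -0.31 and 15 negative. Over all bright genes 38.9% were called, 22.5% higher and 16.4% lower. The 15 RNU genes, which encode spliceosomal and related small nuclear RNAs, accounted for 8 of the 13 lower calls and had a median of -0.67. Those 8 were 53.3% of the RNU genes, beside 11.4% of all genes called lower. RNU5E-1 lay at 9.53, 10.22 and 10.29 in the SK-N-MC control, siRNA 2 and siRNA 3 arrays and at 8.49, 8.19 and 8.39 in A673 (-1.66, SE 0.19). RNU11 (-1.45), RNU4ATAC (-1.14) and RNU4-1 (-1.13) were also lower in A673. Some of these genes, such as RNU4-1, have near-identical copies, so their single values are uncertain. The 173 microRNA genes, of which 120 lay under a mean log2 of 2, had 3 called higher and 3 lower (median 0.011). Of the RNAs of the related ribonuclease complexes, RMRP differed by -0.63 and RPPH1 by 0.16.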
